A study of Mus musculus with 9 samples.

Results

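Gene expression of 10 nucleic acid sensors and their adaptors was described across 3 groups of mouse pancreatic tumor cells. The members were the rows of the deposited expression table named Mb21d1 (cGAS), Tmem173 (STING), Ddx58 (RIG-I), Ifih1 (MDA5), Mavs, Tbk1, Tlr3, Zbp1, Trex1 and Samhd1, so 10 of the 24493 genes in the table. They were chosen by name, with no measured value in the rule, but with earlier results of these data known. The groups were escape e2 (3 libraries), escape e1 (3 libraries) and parental (3 libraries). Both escape lines were derived from the parental line and are described by the series as resistant to immunotherapy. All 9 libraries came from untreated cells of C57BL/6 background, cultured in DMEM with serum. How the escape lines were obtained, whether each is a single clone, and whether replicate libraries stem from different cultures is not given in the sources used here, so p-values measure only the spread between these libraries.

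Cells detect foreign or misplaced nucleic acid with a small set of receptors. cGAS binds DNA in the cytosol and makes the messenger cGAMP, which activates STING. RIG-I and MDA5 bind RNA in the cytosol and signal through MAVS, while TLR3 senses double-stranded RNA in endosomes. These routes meet at the kinase TBK1, which phosphorylates the transcription factor IRF3 and so turns on type I interferon and its target genes. ZBP1 recognises Z-form nucleic acid and can trigger cell death through RIPK3, and TREX1 and SAMHD1 limit sensing by degrading DNA or the nucleotides it is made from. Several of these sensors are themselves induced by interferon.

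Levels are in TPM, which scales each transcript by its length and by the library's total and keeps no sequencing depth. The depth of each library is therefore unknown, and from 11188 to 12039 genes per library reached 1 TPM. Fold changes are on the log2(TPM + 1) scale with their SE, a scale that compresses changes close to 0. Tests are limma's, with Benjamini-Hochberg adjustment over the 12769 genes that reached 1 TPM in at least 3 libraries, and a gene counted as called below an adjusted p of 0.05. All 10 members passed that filter. Mb21d1 and Zbp1 were below 1 TPM in every parental library and passed only through escape libraries. Both therefore had to be higher in at least 3 escape libraries than in every parental one, so their rises are partly set by the filter.

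The cells were checked against marker genes. Of 16 immune markers, only the lysozyme gene Lyz2 reached 1 TPM in any library, at 1.34, 1.51 and 0.914 TPM in e2, against 0 in every e1 and parental library. The summed level of the 16 was 1.71 to 2.62 TPM in e2, 0.674 to 0.77 TPM in e1 and 1.49 to 1.83 TPM in parental libraries. The T cell genes Cd3e and Cd4 and the NK cell genes Ncr1 and Nkg7 were listed at 0 in all 9 libraries, and the T cell gene Cd8a lay between 0.0741 and 0.2 TPM in all of them. Summed over 5 endothelial markers, the highest library had 0.885 TPM. Ductal epithelial markers summed to 1769.1 to 1839.4 TPM in e2, 1215.0 to 1261.9 TPM in e1 and 8397.1 to 9595.5 TPM in parental libraries, and Epcam and Cldn4 stayed below 1 TPM in both escape lines. Sox9, on the same list, ran the other way, at 41.4 ± 2.2 TPM in e2 and 17.6 ± 2.52 TPM in e1, against 6.07 ± 2.16 TPM in parental cells (SD, n = 3 each). These markers moved with the line in every comparison below, and their part in the results was not tested. In RNA from whole cultures, fewer cells that express a gene and less RNA per cell cannot be told apart.

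The DNA-sensing pair, cGAS and STING, was higher in both escape lines than in parental cells and highest in e1. Mb21d1 lies on the minus strand of chromosome 9, at 78430518 to 78443237 in GRCm38.p6. It had 6.94, 7.02 and 6.17 TPM in e2 and 12.5, 10.0 and 8.88 TPM in e1, against 0.277, 0.377 and 0.323 TPM in parental libraries. Each group of libraries stood clear of the others, with parental cells near 0. Mb21d1 rose by 2.54 ± 0.12 on the log2 scale in e2 (adjusted p = 4.02e-08) and by 3.10 ± 0.12 in e1 (adjusted p = 1.13e-08). Between the lines, e2 was below e1 by a log2 fold change of -0.56 ± 0.12 (adjusted p = 0.00166). On the linear scale the mean of e2 was 20.6 times and that of e1 32.1 times the parental mean. With a pseudocount of 0.1 in place of 1, the log2 values were 4.0 and 4.63. Of its 4126 annotated exon bases, 201 overlap the pseudogene Gm8093 on the opposite strand, and with no strand setting given, reads from the 2 cannot be told apart there.

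Tmem173 lies on chromosome 18, at 35733678 to 35740554, and encodes the adaptor that carries the cGAMP signal from the endoplasmic reticulum. Its level was 17.4, 17.4 and 16.3 TPM in e2, 22.3, 22.9 and 23.4 TPM in e1, and 3.91, 4.15 and 4.16 TPM in parental libraries. The order of the groups was the same as for Mb21d1, with e1 highest and no overlap. Here the rise was 1.83 ± 0.06 in e2 (adjusted p = 3.65e-09) and 2.23 ± 0.06 in e1 (adjusted p = 1.07e-09). The difference between the lines was -0.40 ± 0.06 for e2 minus e1 (adjusted p = 0.000163). Unlike Mb21d1, Tmem173 was already present in parental cells, at 4.08 ± 0.141 TPM (SD, n = 3).

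Among the cytosolic RNA sensors, RIG-I rose strongly in both lines while MDA5 passed in no comparison. Ddx58 lies on chromosome 4, at 40203777 to 40239825 on the minus strand. It had 33.5, 30.6 and 31.9 TPM in e2, 18, 14.1 and 14.2 TPM in e1, and 2.24, 2.19 and 2.15 TPM in parental libraries. The 3 groups did not overlap, and e2 stood highest. Ddx58 rose by 3.37 ± 0.09 in e2 (adjusted p = 1.49e-09) and by 2.36 ± 0.09 in e1 (adjusted p = 1.67e-08), and e2 exceeded e1 by 1.01 ± 0.09 (adjusted p = 8.12e-06). Among all 12769 tested genes its rise ranked 209 in e2 and 226 in e1, counted from the highest.

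Ifih1, on chromosome 2 at 62595618 to 62646255, had 4.0, 4.12 and 3.94 TPM in e2, 7.78, 3.02 and 3.19 TPM in e1, and 2.62, 2.91 and 2.96 TPM in parental libraries. E1 library 1 stood above every other library, and the other e1 values lay just above the parental ones. No comparison passed the test: the log2 fold change was 0.39 ± 0.25 for e2 minus parental (adjusted p = 0.186), 0.47 ± 0.25 for e1 minus parental (adjusted p = 0.125) and -0.08 ± 0.25 for e2 minus e1 (adjusted p = 0.807). Escape libraries of each line nevertheless all lay above the parental ones. When e1 library 1 was left out, e2 passed against parental (0.39, adjusted p = 0.00038), and e2 minus e1 changed sign and passed (0.29, adjusted p = 0.00538). E1 minus parental was then 0.10 (adjusted p = 0.245), and without e1 library 2 it was 0.66 (adjusted p = 0.0428).

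Promoter windows of 300 bases, 250 before and 50 after the start site, are shown for 4 members that behaved differently, to set their sequence beside their levels. They come from RefSeq on GRCm38.p6 and are written along the gene's strand, and all 4 genes are on the minus strand. Windows were given for 8 of the 10 members, and Tmem173 and Zbp1 have none here. Capitals mark matches to GAAANNGAA, a tandem core of sites for the IRF family, or to TTCNNNGAA, a site for STAT factors, both searched on both strands. Ddx58, at chr4:40239776-40240075, rose in both lines. Ifih1, at chr2:62646206-62646505, passed in neither line. Mb21d1, at chr9:78443188-78443487, rose most in e1. Samhd1, at chr2:157135047-157135346, rose in e1 and little in e2.
Ddx58: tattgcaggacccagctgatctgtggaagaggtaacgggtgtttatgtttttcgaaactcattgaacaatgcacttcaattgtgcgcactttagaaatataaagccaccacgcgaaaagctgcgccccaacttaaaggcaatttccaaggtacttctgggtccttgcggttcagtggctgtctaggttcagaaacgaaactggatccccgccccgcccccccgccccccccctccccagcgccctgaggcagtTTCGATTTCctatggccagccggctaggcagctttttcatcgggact
Ifih1: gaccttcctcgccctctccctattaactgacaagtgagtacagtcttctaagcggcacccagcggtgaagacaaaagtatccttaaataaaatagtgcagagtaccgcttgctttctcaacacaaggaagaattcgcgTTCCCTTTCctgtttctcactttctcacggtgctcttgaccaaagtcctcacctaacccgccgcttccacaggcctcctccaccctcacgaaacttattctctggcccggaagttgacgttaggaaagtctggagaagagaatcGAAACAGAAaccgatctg
Mb21d1: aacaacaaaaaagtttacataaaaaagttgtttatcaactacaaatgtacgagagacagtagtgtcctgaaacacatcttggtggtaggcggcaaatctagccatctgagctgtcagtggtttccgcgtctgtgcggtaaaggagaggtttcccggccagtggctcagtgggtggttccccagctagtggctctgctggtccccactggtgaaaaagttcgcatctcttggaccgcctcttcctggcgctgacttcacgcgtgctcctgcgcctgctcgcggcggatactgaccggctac
Samhd1: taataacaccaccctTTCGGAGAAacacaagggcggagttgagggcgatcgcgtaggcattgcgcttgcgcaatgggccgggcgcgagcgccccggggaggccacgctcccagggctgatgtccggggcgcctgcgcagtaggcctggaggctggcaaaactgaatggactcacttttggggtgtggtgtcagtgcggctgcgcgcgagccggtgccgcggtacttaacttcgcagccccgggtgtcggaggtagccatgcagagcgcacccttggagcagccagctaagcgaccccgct

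The Ddx58 window held the IRF core on the opposite strand at +4 to +12, as TTCGATTTC, and the Ifih1 window held it at -112 to -104 on the opposite strand, as TTCCCTTTC, and at +33 to +41 on the gene's own strand, as GAAACAGAA. A STAT site, TTCGGAGAA, which reads as a match on either strand, stood at -235 to -227 in the Samhd1 window. Mb21d1, Mavs, Tbk1, Trex1 (in 2 windows) and Tlr3 held neither set of letters in these windows. Across 32851 promoter windows of the same length, 8.56% held the IRF core and 8.30% the STAT site. These matches describe the sequence only.

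Further down the pathway, the adaptor of the RNA sensors rose modestly and the shared kinase differed little. Mavs, on the plus strand of chromosome 2 at 131234063 to 131248025, encodes the mitochondrial adaptor of RIG-I and MDA5. It had 33.5, 32.9 and 32.8 TPM in e2, 27.5, 28.1 and 30.7 TPM in e1, and 22.7, 24.9 and 21.8 TPM in parental libraries. The groups were ordered e2, e1, parental without overlap. Its log2 fold change was 0.50 ± 0.07 in e2 (adjusted p = 7.95e-05) and 0.30 ± 0.07 in e1 (adjusted p = 0.00219), with 0.20 ± 0.07 for e2 minus e1 (adjusted p = 0.0222). That last call ended in 6 of 18 alternatives, among them median-ratio scaling of the libraries (0.10, adjusted p = 0.144).

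Tbk1, the kinase on which the routes converge, lies on chromosome 10 at 121546455 to 121586794. Its level was 19.0, 19.7 and 19.6 TPM in e2, 15.8, 16.7 and 16.0 TPM in e1, and 15.2, 18.3 and 17.4 TPM in parental libraries. The e2 libraries lay above all others, by little, and e1 and parental libraries overlapped. Tbk1 passed for e2 minus parental at 0.19 ± 0.07 (adjusted p = 0.0342) and for e2 minus e1 at 0.25 ± 0.07 (adjusted p = 0.01), but not for e1 minus parental (-0.06 ± 0.07, adjusted p = 0.463, and -0.14, adjusted p = 0.0462, without parental library 1). The call against parental ended in 7 of 18 alternatives, where the value ran down to 0.09.

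The endosomal RNA sensor TLR3 was the only member that fell in both lines. Tlr3 lies on chromosome 8, at 45395665 to 45411075. It stood at 3.47, 2.77 and 3.47 TPM in e2 and 0.914, 1.19 and 1.08 TPM in e1, against 13.6, 10.4 and 9.0 TPM in parental libraries. Parental libraries were highest and e1 libraries lowest, with no overlap. In e2 the log2 fold change was -1.49 ± 0.14 (adjusted p = 7.57e-06), and in e1 it was -2.53 ± 0.14 (adjusted p = 1.97e-07), leaving e2 above e1 by 1.04 ± 0.14 (adjusted p = 0.000115). Of its 5207 annotated exon bases, 381 overlap an antisense gene, Gm45542, and with no strand setting given, reads from the 2 cannot be told apart there.

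Zbp1 separated the 2 escape lines more than any other member. It lies on chromosome 2, at 173206612 to 173218959. E2 libraries had 18.3, 17.4 and 20.6 TPM and e1 libraries 2.24, 0.711 and 1.38 TPM, against 0.0992, 0.0628 and 0.118 TPM in parental libraries. The gene was near 0 in parental cells, low in e1 and abundant in e2, and no group overlapped another. Zbp1 rose by 4.17 ± 0.19 in e2 (adjusted p = 4.7e-08) and by 1.11 ± 0.19 in e1 (adjusted p = 0.000578), and e2 exceeded e1 by 3.06 ± 0.19 (adjusted p = 7.1e-07). On the linear scale the e2 mean was 13 times the e1 mean and 201.3 times the parental mean, and the e1 mean was 15.5 times the parental mean. With a pseudocount of 0.1, the log2 values against parental cells were 6.62 in e2 and 2.88 in e1. The e1 libraries spread widely among themselves, and without e1 library 1 the e1 value was 0.88 (adjusted p = 0.000194).

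Of the nucleases, SAMHD1 rose mainly in e1 and TREX1 rose in both lines. Samhd1, on chromosome 2 at 157097534 to 157135096, encodes an enzyme that breaks down deoxynucleotides. It had 40.7, 38.1 and 39.8 TPM in e2, 80.7, 83.7 and 81.0 TPM in e1, and 33.9, 36.5 and 36.7 TPM in parental libraries. The e1 libraries stood far above both other groups, and e2 libraries lay just above the parental ones. Samhd1 rose by 1.17 ± 0.05 in e1 (adjusted p = 4.49e-08), and e2 was below e1 by -1.03 ± 0.05 (adjusted p = 1.84e-07). For e2 minus parental the value was 0.14 ± 0.05 (adjusted p = 0.0341), a call that ended in 7 of 18 alternatives, with 0.05 (adjusted p = 0.394) under median-ratio scaling.

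Trex1, a DNA exonuclease gene on chromosome 9 at 109057932 to 109059723, had 15.2, 17.1 and 16.9 TPM in e2, 12.3, 14.9 and 16.7 TPM in e1, and 7.58, 7.14 and 7.09 TPM in parental libraries. Both escape lines lay above parental cells and overlapped each other. Trex1 rose by 1.07 ± 0.10 in e2 (adjusted p = 8.45e-06) and by 0.91 ± 0.10 in e1 (adjusted p = 3.04e-05), and e2 minus e1 did not pass (0.17 ± 0.10, adjusted p = 0.175), except without e1 library 3 (0.26, adjusted p = 0.0391). All 1147 of its annotated exon bases are shared with Atrip on the same strand, a gene of the DNA damage response, so the division of reads between the 2 is uncertain. Atrip averaged 10.9 ± 0.589 TPM in e2, 19.3 ± 0.173 TPM in e1 and 10.7 ± 0.884 TPM in parental libraries (SD, n = 3 each). It rose in e1 (0.80 ± 0.07, adjusted p = 5.32e-06) and had a log2 fold change of 0.02 ± 0.07 in e2 (adjusted p = 0.772).

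**Figure D1:**
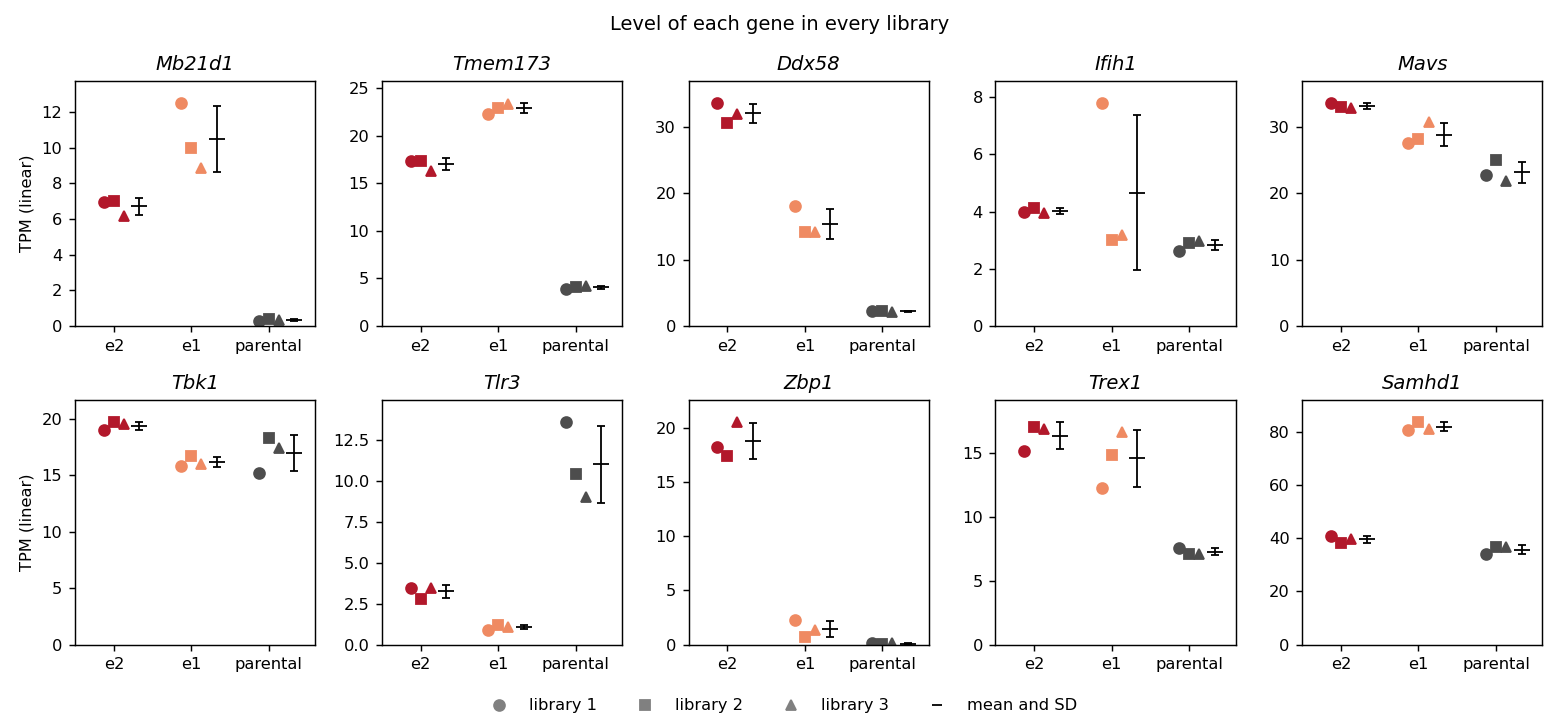
Level of each of the 10 genes in TPM on a linear axis from 0, in e2, e1 and parental cells. Symbols are single libraries, and the bars to their right are mean and SD of 3 libraries. Zbp1 stands between 17.4 and 20.6 TPM in e2 and at or below 2.24 TPM elsewhere, Samhd1 is highest in e1, Tlr3 is highest in parental cells, and e1 library 1 of Ifih1 stands apart at 7.78 TPM.

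Counted over the list, 8 members were higher and 1 lower in e2 against parental cells, so 90% were called where 73.5% of all tested genes were (40.8% higher and 32.7% lower). In e1 against parental cells 7 were higher and 1 lower, 80% against 70.6% of all tested genes (35.7% higher and 34.9% lower). For e2 minus e1, 5 were higher and 3 lower, 80% against 70.3% (40.6% higher and 29.7% lower). Most genes of these lines passed the test, so the share called is close to the background and is no result about these genes. The median log2 fold change of the 10 was 0.79 in e2 and 1.01 in e1, beside 0.07 and 0.02 over all tested genes, and 0.18 for e2 minus e1, beside 0.09. Mb21d1 and Zbp1 entered only through escape libraries, so the counts and medians against parental cells are partly set by the filter. The list was also chosen with earlier results of these data known. Genes called with a log2 change of at least 1 in either direction were 23.7%, 20.2% and 17.8% of all tested genes in those 3 comparisons. The comparisons with parental cells share the same 3 parental libraries.

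**Figure D2:**
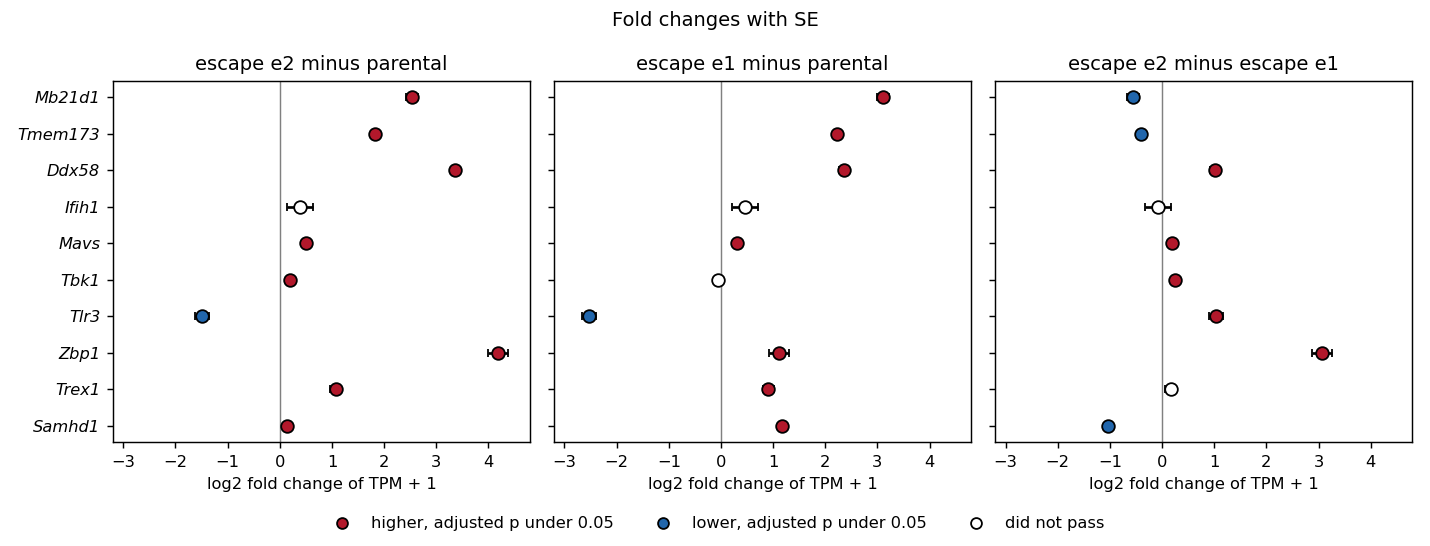
Log2 fold change of TPM + 1 with its SE for each gene, in 3 panels for e2 minus parental, e1 minus parental and e2 minus e1. Red points passed as higher, blue as lower and white points did not pass. Mb21d1, Tmem173 and Samhd1 lie below 0 for e2 minus e1, while Ddx58, Tlr3 and Zbp1 lie at about 1 or more.

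Ranked by level, Samhd1 and Mavs were the most abundant members in each of the 3 groups. In e2 they were followed by Ddx58, Tbk1, Zbp1, Tmem173, Trex1, Mb21d1, Ifih1 and Tlr3. Libraries of Mavs and Ddx58 overlapped in e2, as did those of each pair of neighbours from Tbk1 to Trex1. In e1 the order after Mavs was Tmem173, Tbk1, Ddx58, Trex1, Mb21d1, Ifih1, Zbp1 and Tlr3, and neighbours from Tbk1 to Mb21d1 overlapped, as did Zbp1 and Tlr3. Parental cells had Tbk1, Tlr3, Trex1, Tmem173, Ifih1, Ddx58, Mb21d1 and Zbp1 in that order, with no overlap between neighbours. Tlr3 thus ranked 4 in parental cells and 10 in both escape lines, and Ddx58 ranked 3 in e2, 5 in e1 and 8 in parental cells. Together the 10 genes held 187.0 to 191.9 TPM in e2, 195.3 to 200.1 TPM in e1 and 101.8 to 106.9 TPM in parental libraries, with no overlap between groups. Samhd1 alone averaged 39.5 TPM in e2, 81.8 TPM in e1 and 35.7 TPM in parental cells.

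Correlations between members over the 9 libraries are given as a description, since the points share 3 lines. Mb21d1 and Tmem173 had a Pearson correlation of log2 values of 1.0, and each had -0.96 with Tlr3. Ddx58 had 0.95 with Mavs and with Trex1, 0.89 with Mb21d1 and with Tmem173, and 0.88 with Zbp1. Samhd1 and Zbp1, each high in a different line, had -0.15. By the same measure over 10214 candidate genes, the gene nearest to Mb21d1 was Sgpp1 (0.998), to Tmem173 Mxra7 (1.0), to Ddx58 Tenm3 (0.999), to Zbp1 Postn (0.997), to Samhd1 Sptan1 (0.998) and to Tlr3 Pgf (0.996). Postn, which encodes the matrix protein periostin, averaged 24.1 TPM in e2, 1.53 TPM in e1 and 0.0206 TPM in parental cells. Another neighbour of Zbp1 was Tap1, a peptide transporter of antigen presentation, with 8.38 TPM in e2, 1.21 TPM in e1 and 0.235 TPM in parental cells.

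The libraries of e1 did not vary alike in all members. E1 library 1 stood above both other e1 libraries for Mb21d1, Ddx58, Ifih1 and Zbp1, and below both for the other 6 members. It also stood above both in 12 of 12 tested early interferon targets, with a median log2 difference of 1.17, and in 38.5% of all tested genes. Isg15, a ubiquitin-like interferon target, had 66.5 TPM there, against 28.1 and 28.3 TPM in the other e1 libraries. Without e1 library 1, 7 members were still higher and 1 lower in e1 against parental cells, and for e2 minus e1 the counts were 6 and 3. Log2 fold changes in e1 were then 2.98 for Mb21d1 and 2.25 for Ddx58.

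**Figure D3:**
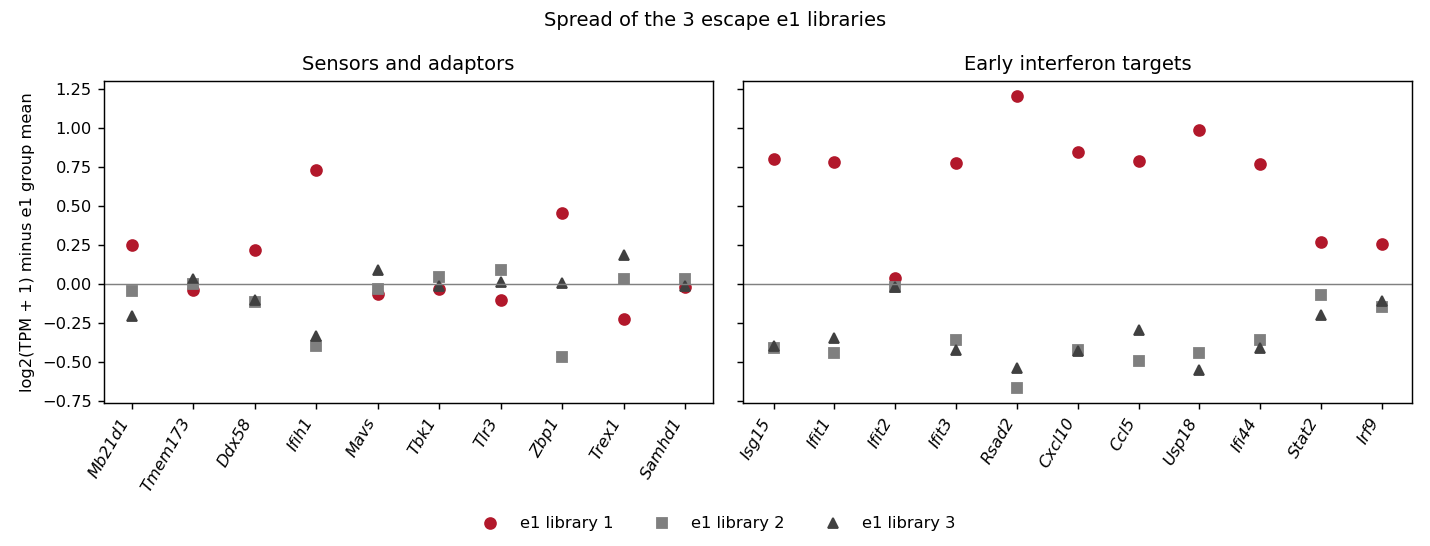
Log2(TPM + 1) of the 3 e1 libraries minus their mean, for the 10 members on the left and 11 early interferon targets on the right. Red points are e1 library 1, which lies above the other 2 libraries in 4 of the 10 members and in the 11 interferon targets shown.

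Other genes of DNA sensing changed in both directions. Of 24 listed, 23 were tested. In e2 11 were higher and 5 lower than in parental cells, and in e1 9 were higher and 8 lower, with medians of 0.11 and 0.06. So 69.6% were called in e2 and 73.9% in e1, beside 73.5% and 70.6% of all tested genes. Over all tested genes 40.8% were higher and 32.7% lower in e2, and 35.7% higher and 34.9% lower in e1. The share called is thus close to the background and is no result about this list. Aim2, a DNA sensor of the inflammasome, had 15.7, 14.5 and 15.1 TPM in e2, 0.395, 0.378 and 0.308 TPM in e1, and 1.42, 0.731 and 0.686 TPM in parental libraries. It was abundant in e2 alone, and e1 lay below parental cells. Aim2 rose by 3.07 ± 0.13 in e2 (adjusted p = 2.72e-08) and had a log2 fold change of -0.50 ± 0.13 in e1 (adjusted p = 0.00705). Its relative Ifi203 behaved alike in e2, at 7.32 ± 0.516 TPM, against 0.40 ± 0.193 TPM in e1 and 0.23 ± 0.0647 TPM in parental cells (SD, n = 3 each). It too passed the filter only through escape libraries, which held for 2 of the 23 tested genes of this list. For Ifi203 these were the e2 libraries alone, so its place above e1 was also set by the filter. Ifi204, of the same family with close copies, rose in both lines (2.61 ± 0.11 and 1.49 ± 0.11).

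Slc19a1 and Enpp1, both of which handle cGAMP, differed between the lines in opposite directions. Slc19a1, a folate carrier that can import cGAMP, had 6.7, 8.1 and 6.86 TPM in e2, 42.7, 34.4 and 32.7 TPM in e1, and 14.0, 17.4 and 16.5 TPM in parental libraries. It was lowest in e2 and highest in e1, with no overlap (e2 minus e1, -2.19 ± 0.12, adjusted p = 2.61e-07). Enpp1, which degrades cGAMP outside the cell, went the other way: it averaged 14.7 ± 0.714 TPM in e2 and 4.55 ± 0.855 TPM in e1, and 7.40 ± 0.267 TPM in parental cells (SD, n = 3 each). The rise in e2 (0.90 ± 0.10, adjusted p = 3.12e-05) and the fall in e1 (-0.61 ± 0.10, adjusted p = 0.000501) both passed. Other transporters of cGAMP were mixed for e2 minus e1. The exporter gene Abcc1 was lower (-0.92 ± 0.10, adjusted p = 2.82e-05), the channel genes Lrrc8a and Lrrc8d were higher (0.39 ± 0.10 and 0.99 ± 0.06), and Lrrc8c and Lrrc8e did not pass (adjusted p = 0.505 and 0.0996). Xrcc5 and Xrcc6 encode the 2 subunits of the DNA end-binding Ku complex. In e1 Xrcc5 fell by 1.58 ± 0.09 and Xrcc6 rose by 0.81 ± 0.07.

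The list of cofactors of the RNA helicases also holds genes that sense RNA themselves: Oas1a, Oas2, Oas3 and Eif2ak2, each called higher in e2. The list moved both ways, with 8 higher and 7 lower of 23 tested in e2, and 7 higher and 8 lower in e1. That was 65.2% called in each line, where 73.5% of all tested genes were called in e2 and 70.6% in e1. Of these 23, 5 were below 1 TPM in every parental library (Dhx58, Rnf125, Oas1a, Oas2 and Oas3) and passed the filter only through escape libraries. Each therefore had to be higher in at least 3 escape libraries than in every parental one, so the counts are partly set by the filter. Against parental cells, Rnf125 still passed in neither line (adjusted p = 0.199 in e2 and 0.0665 in e1), and Oas1a and Oas2 did not pass in e1. The median was -0.06 in e2 and 0.06 in e1, and 0.32 for e2 minus e1, where 11 were higher and 6 lower (73.9% called, beside 70.3% of all tested genes). Oas2 and Oas3 reached 1 TPM only in the e2 libraries, so their place above e1 was also set by the filter. Oas1a, of the oligoadenylate synthetase family that senses RNA and has close copies, had 11.7, 10.7 and 12.2 TPM in e2 and 2.78, 0.272 and 0.251 TPM in e1, against 0.0345, 0.0665 and 0.164 TPM in parental libraries. The e2 libraries stood clear of all others, and e1 library 1 stood above the other e1 libraries. It rose in e2 (3.53 ± 0.37, adjusted p = 2.28e-05), while in e1 the value was 0.74 ± 0.37 (adjusted p = 0.0991), and 0.21 (adjusted p = 0.0488) without e1 library 1. Dhx58, the third helicase of the RIG-I family, rose in both lines but stayed low, at 2.05 ± 0.215 TPM in e2 and 1.47 ± 0.513 TPM in e1, against 0.189 ± 0.0814 TPM in parental cells (SD, n = 3 each). The stress granule gene G3bp1 fell in e2 (-0.26 ± 0.09, adjusted p = 0.0208) and rose in e1 (0.55 ± 0.09, adjusted p = 0.000301), and the call in e2 ended in 4 of 18 alternatives.

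In the module of kinases and transcription factors below the adaptors, the partner kinases of Tbk1 fell and Irf7 rose. Of 17 tested, 7 were higher and 4 lower in e2, and 8 were higher and 5 lower in e1. That was 64.7% and 76.5% called, where 73.5% and 70.6% of all tested genes were. Ikbke, the kinase most related to TBK1, had 2.46, 2.39 and 2.43 TPM in e2 and 1.27, 1.89 and 2.04 TPM in e1, against 5.82, 7.48 and 8.06 TPM in parental libraries. Parental libraries were highest without overlap (-1.24 ± 0.14, adjusted p = 2.22e-05 in e2, and -1.57 ± 0.14, adjusted p = 4.22e-06 in e1). The NF-kB kinases Ikbkb and Chuk fell as well, by 1.32 ± 0.07 and 0.83 ± 0.09 in e2 and by 0.56 ± 0.07 and 1.15 ± 0.09 in e1. Optn, an adaptor that binds TBK1, averaged 22.3 ± 1.0 TPM in e2, 2.81 ± 0.91 TPM in e1 and 34.2 ± 4.18 TPM in parental cells (SD, n = 3 each), a fall by 3.23 ± 0.17 in e1 (adjusted p = 1.21e-07) and by 0.59 ± 0.17 in e2 (adjusted p = 0.00992).

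Irf3, the factor that TBK1 phosphorylates, was near level: it had 25.3, 23.6 and 25.2 TPM in e2, 30.6, 31.0 and 30.8 TPM in e1, and 24.6, 29.2 and 28.0 TPM in parental libraries. E2 and parental libraries overlapped (-0.14 ± 0.07, adjusted p = 0.0961), and e1 was slightly higher (0.17 ± 0.07, adjusted p = 0.0431), a call that ended in 10 of 18 alternatives. In 3 of the alternatives, e2 passed as lower than parental cells, at -0.20 to -0.23. Irf7, which interferon induces, had 20.7, 23.6 and 21.9 TPM in e2 and 5.23, 2.06 and 2.46 TPM in e1, against 0.655, 1.05 and 0.664 TPM in parental libraries. The order was e2, e1, parental without overlap, as for Ddx58 and Zbp1. Irf7 rose by 3.69 ± 0.23 in e2 (adjusted p = 3.95e-07) and by 1.18 ± 0.23 in e1 (adjusted p = 0.00123).

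In the endosomal module around Tlr3, the 3 highest rises in e2 were those of proteases. Of 15 listed, 11 were tested, with 6 higher and 1 lower in e2, 3 and 3 in e1, and 9 higher and 1 lower for e2 minus e1. In those 3 comparisons 63.6%, 54.5% and 90.9% of the list were called, where 73.5%, 70.6% and 70.3% of all tested genes were. These proteases process endosomal receptors, with log2 fold changes of 1.59 ± 0.09 for Ctsb, 1.5 ± 0.12 for Lgmn and 1.24 ± 0.07 for Ctsl. Ticam1, the adaptor of TLR3, stood at 6.01 ± 0.301 TPM in e2, 5.16 ± 0.24 TPM in e1 and 5.26 ± 0.246 TPM in parental cells (SD, n = 3 each), and neither line passed against parental cells (adjusted p = 0.0624 in e2 and 0.774 in e1). Of the other nucleic acid receptors, Tlr9 was listed at 0 in every library, and Tlr7 reached at most 0.257 TPM.

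Of the partners of Zbp1 in cell death, all 7 listed were tested. Against parental cells 4 were higher and 1 lower in e2, where 73.5% of all tested genes were called. In e1 3 were higher and 4 lower, where 70.6% of all tested genes were called. For e2 minus e1, 6 were higher and 1 lower (median 0.62), where 70.3% of all tested genes were called (40.6% higher and 29.7% lower). The one lower was Ripk3, the kinase that ZBP1 engages: it had 8.43, 7.64 and 7.39 TPM in e2, 27.9, 36.4 and 35.0 TPM in e1, and 17.8, 28.8 and 26.7 TPM in parental libraries. The line with the most Zbp1 thus had the least Ripk3, without overlap with either other group (-1.94 ± 0.17 for e2 minus e1, adjusted p = 5.42e-06, and -1.5 ± 0.17 for e2 minus parental, adjusted p = 2.54e-05). Mlkl, the executor of necroptosis, averaged 51.1 ± 0.194 TPM in e2, 28.3 ± 7.24 TPM in e1 and 37.3 ± 1.23 TPM in parental cells (SD, n = 3 each). Casp8 and its inhibitor Cflar, which restrain necroptosis, fell in e1 by 0.89 ± 0.08 and 1.22 ± 0.08. In e2 the Casp8 value was 0.16 ± 0.08 (adjusted p = 0.104), and it passed in 3 of 18 alternatives.

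Among nucleases and RNA editing genes, 6 of 17 tested were higher and 8 lower in e2, and 7 were higher and 6 lower in e1, with medians of -0.07 and 0.21. That was 82.4% and 76.5% called, where 73.5% and 70.6% of all tested genes were. Trex2, the close relative of Trex1, was listed at 0 in all 6 escape libraries and had 5.68, 4.99 and 4.81 TPM in parental libraries, so it moved opposite to Trex1. Dnase2a, which digests DNA in lysosomes, had 29.5, 30.0 and 29.9 TPM in e2, 7.01, 11.2 and 10.9 TPM in e1, and 11.1, 10.7 and 9.94 TPM in parental libraries. It was high in e2 only, and e1 and parental libraries overlapped (1.41 ± 0.14, adjusted p = 1.23e-05 in e2, and -0.13 ± 0.14, adjusted p = 0.425 in e1). Pld3, another endolysosomal nuclease, rose in both lines, by 1.65 ± 0.11 in e2 and by 0.63 ± 0.11 in e1. Rnaseh2a, the catalytic subunit of RNase H2, fell in e2 by 0.59 ± 0.05 and rose in e1 by 0.23 ± 0.05.

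Interferon genes and their early targets, which these routes can turn on, were described as well. Whether the sensors set the levels of these genes was not tested. Ifnb1, interferon beta, was too low to be tested, at 0.211, 0.125 and 0.249 TPM in e2 and 0.177, 0 and 0 TPM in e1, and listed at 0 in parental libraries. The alpha interferon genes Ifna1, Ifna2 and Ifna4 and the lambda genes Ifnl2 and Ifnl3 were listed at 0 in all 9. Of 12 tested targets, 11 were higher and 0 lower in e2, with a median of 2.42, and 8 were higher and 1 lower in e1, with a median of 1.19. Over all tested genes 40.8% were higher and 32.7% lower in e2, and 35.7% higher and 34.9% lower in e1, where the 75% of targets called is close to the 70.6% of all tested genes. Of these 12, 5 were below 1 TPM in every parental library and entered through escape libraries, so these counts are partly set by the filter. The gene that did not pass in e2 and was lower in e1 was Ifit2, at 9.80 ± 0.352 TPM in e2, 8.46 ± 0.233 TPM in e1 and 10.7 ± 0.762 TPM in parental cells (SD, n = 3 each).

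Targets differed in which line had more: for e2 minus e1, 7 of 12 were higher and 2 lower, with a median of 0.60. The 75% called is close to the 70.3% of all tested genes (40.6% higher and 29.7% lower), so the count is no result about the targets. Isg15 had 32.3, 32.3 and 30.9 TPM in e2, 66.5, 28.1 and 28.3 TPM in e1, and 1.02, 0.996 and 1.23 TPM in parental libraries, and the escape lines overlapped (-0.24 ± 0.28 for e2 minus e1, adjusted p = 0.472). Ifit1, an antiviral RNA-binding protein, overlapped between the lines too (-0.38 ± 0.27, adjusted p = 0.234). The chemokine genes Cxcl10 and Ccl5 were lower in e2 than in e1, at 20.1, 16.8 and 15.4 TPM against 59.2, 24.0 and 23.9 TPM for Cxcl10 (-0.87 ± 0.33, adjusted p = 0.0397, a call that ended in 5 of 18 alternatives) and 8.78, 6.13 and 7.4 TPM against 34.3, 13.5 and 15.7 TPM for Ccl5 (-1.29 ± 0.29, adjusted p = 0.00293). In parental libraries Cxcl10 had 3.09, 2.67 and 1.84 TPM, and Ccl5 was at 0, 0 and 0.204 TPM. Usp18, a protease that removes ISG15 from proteins, favoured e2 instead, with 11.7, 12.5 and 12.1 TPM there, 4.17, 0.924 and 0.784 TPM in e1, and 0.741, 0.357 and 0.396 TPM in parental libraries. The e2 libraries stood clear of all others (e2 minus e1, 2.33 ± 0.35, adjusted p = 0.000263).

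**Figure D4:**
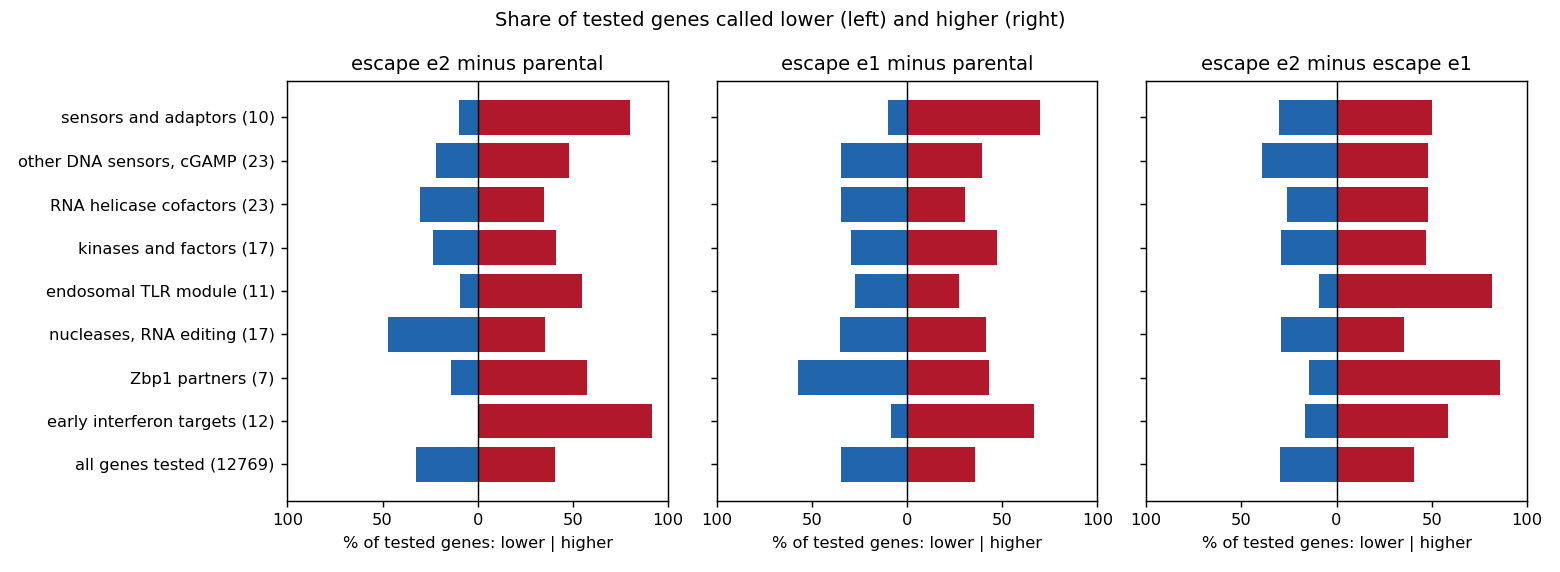
Share of tested genes in each list that passed as lower (left, blue) or higher (right, red), in percent, for e2 minus parental, e1 minus parental and e2 minus e1. The lowest bar is all 12769 tested genes, of which 40.8% were higher and 32.7% lower in e2 against parental cells, and the numbers in brackets are genes tested.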

How the data were processed

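RNA was extracted with a commercial kit and libraries were made by a company, per the labels' protocols. The authors deposited TPM values per gene and, in a separate table, rlog values, which are on a log2 scale. Per the submitters' processing notes, Salmon and DESeq2 were used, with genome build mm10. Not given in the sources used here are their versions, the annotation and the strand setting. TPM sums to the same total in every library, so counting error and detection limits are unknown.

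Groups and library numbers were taken from the sample titles. On log2(TPM + 1), 12769 of 24493 genes were kept, those reaching 1 TPM in 3 or more of the 9 libraries. The limma version was 3.58.1 (R 4.3.3), with 3 group means in the model and trend and robust empirical Bayes, and two-sided tests were adjusted over all genes tested. The fit was tested on simulated data.

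The members and gene lists were chosen with earlier results of these data known. Besides the members, the genes named follow a rule: per list and comparison up to 3 called genes in each direction with the largest change among those at 5 TPM or more, 7 genes named whatever their result (Irf3, Irf7, Isg15, Ifit1, Ifnb1, Cxcl10 and Ccl5), the genes nearest in pattern, and overlapping genes. The text names fewer than the rule gives. Some genes of the lists are counted but not reported singly here. Dhx58, Rnf125, Oas2, Oas3, Eif2ak2, Lrrc8a, Lrrc8e, Ticam1, Tlr7, Tlr9, the interferon alpha and lambda genes and the cell type markers named singly fall outside it and were chosen after their values were seen. The fit was repeated with the rlog table, without a filter, with a 5 TPM filter, with a pseudocount of 0.1, after median-ratio scaling, after dropping the 10 highest genes, on 2 groups at a time, with library number as a block, with plain empirical Bayes, and with each library left out. Gene positions are RefSeq's on GRCm38.p6, and overlaps of exons from GENCODE vM21.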

Additional observations from a re-analysis of the deposited data

Results flagged for a closer look

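Of the 10 members, 8 differed between the 2 escape lines by a test of the difference itself, as log2 fold changes of e2 minus e1 in limma, where 70.3% of all tested genes passed. The differences were -0.56 for Mb21d1, -0.40 for Tmem173, -1.03 for Samhd1, 1.01 for Ddx58, 0.20 for Mavs, 0.25 for Tbk1, 3.06 for Zbp1 and 1.04 for Tlr3. Mb21d1, Tmem173 and Samhd1 were lower in e2, and the other 5 were higher in e2. For Mb21d1 (-0.66 to -0.44), Tmem173 (-0.50 to -0.36), Samhd1 (-1.13 to -0.99), Ddx58 (0.82 to 1.12), Zbp1 (2.72 to 3.74), Tlr3 (0.97 to 1.52) and Tbk1 (0.14 to 0.30), all 18 alternatives kept the call and its direction, and for Mavs 12 of 18 did.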

How the results depend on the processing

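Counts of members called ran from 6 to 9 higher and 1 to 1 lower in e2 against parental cells over the alternatives, from 7 to 8 and from 1 to 2 in e1, and from 4 to 6 and 3 to 3 for e2 minus e1. Leaving out each library gave 1 to 2 members lower in e1. TPM keeps no depth, so low levels such as Zbp1 in parental cells have no detection limit.

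With the library number as a block, members called were 7 and 1, 7 and 1, and 5 and 3, and all genes called were 9163, 8742 and 8740. Whether the numbers pair the samples is not given in the sources used here. Deviations of libraries with the same number correlated at -0.13 to 0.05. Each library correlated best with its own number only between e2 and parental cells. With 3 libraries per group, these values cannot settle whether samples are paired. Under the block, no filter or removal of the 10 highest genes, the endosomal list had 0 lower in e2 against parental cells and 0 lower for e2 minus e1. Under median-ratio scaling and with the rlog table it had 2 lower in e2 against parental cells, partners of Zbp1 had 2 higher and interferon targets 1 lower. Partners of Zbp1 higher in e1 numbered 1 with no filter and with 2 groups only. With 2 groups only, 5 helicase cofactors were lower in e1 and 1 interferon target was lower for e2 minus e1, and with the 5 TPM filter 5 cofactors were higher in e2.

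Leaving out each library, helicase cofactors ran from 4 to 9 lower in e2, and in e1 from 4 to 9 higher and 5 to 8 lower. Partners of Zbp1 ran from 2 to 6 higher in e2 and from 1 to 3 higher in e1. Interferon targets lower for e2 minus e1 ran from 1 to 2, and endosomal genes lower from 0 to 1 both there and in e2 against parental cells.

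Values that changed sign were Tank in e2 (-0.015 under median-ratio scaling, -0.013 with rlog), Atrip in e2 (-0.066 and -0.059, and -0.037 to 0.071 with a library left out) and Traf3 for e2 minus e1 (-0.086 and -0.077, and -0.056 to 0.122). With a library left out, values ran from -0.011 to 0.104 for Trim25 and -0.24 to 0.065 for Dnase2a in e1. For e2 minus e1 they ran from -0.273 to 0.291 for Ifih1, -0.44 to 0.166 for Isg15 and -0.604 to 0.009 for Ifit1, with e1 library 1 deciding the sign of these 5. The causes were not tested.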
